A study of Arabidopsis thaliana with 18 samples.

Results

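AOP3 and AT2G25450 encode 2-oxoglutarate-dependent enzymes of glucosinolate side-chain modification, and their transcripts were followed in developing seeds of Arabidopsis thaliana. They were taken as the probe sets that the platform annotation assigns to these single genes, which gave 1 probe set for each, 2 of the 11630 genes named on the array. The AOP3 probe set is 255471_at, and its gene lies on chromosome 4 under the locus AT4G03050. The probe set of AT2G25450 is 265615_at, and its gene lies on chromosome 2.

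Levels were measured on Affymetrix ATH1 arrays, which carry sets of short probes for each gene, in seeds of the natural accessions C24 and Col-0. Both accessions were unmodified and grown in long days, and seeds were taken 8-9, 10-11 and 12-13 days after a flower had opened. Each of the 6 groups held 3 arrays, one for each pool of seeds dissected out of siliques of several plants, 18 arrays in all. Pools and stages of an accession shared plants, so p-values measure the spread between pools. The study compared the accessions at each stage and the stages within each accession. Per the labels, only probes with the same sequence in both genomes were kept, and the number left in either probe set is not given in the sources used here.

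Glucosinolates are sulfur-rich defence compounds of the Brassicaceae that release bitter or toxic products when tissue is damaged. Their synthesis runs through the elongation of an amino acid chain, the building of the core structure and the modification of the side chain, and seeds store large amounts of them, partly imported from the silique and other organs by transporters. The AOP enzymes act on the side chain of glucosinolates derived from methionine: AOP3 turns the methylsulfinyl end into a hydroxyalkyl group, whereas AOP2 makes alkenyl side chains. AOP2 is listed as a transcribed pseudogene in the RefSeq annotation of the reference genome (TAIR10.1), and its state in C24 was not tested. It is not among the genes that the platform annotation names.

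The arrays were alike in scale. Array medians lay between 6.05 and 6.17 and the 25th percentiles between 4.41 and 4.57 on the log2 scale. Both genes were far above these values on all 18 arrays, AOP3 between 10.28 and 11.49 and AT2G25450 between 7.79 and 11.80. Arrays of a group correlated across probe sets at 0.992 to 0.997. Markers of embryo and storage tissue were bright. None of the 6 listed markers of silique wall, flower and leaf was named in the platform annotation, although unlisted probe sets may stand for them. The purity of the dissected seeds could thus not be read from such markers. The 2 named endosperm markers (AGL62 and IKU2) did not exceed 4.52 on any array.

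AOP3 transcript was lowest at 8-9 days and highest at 10-11 days in both accessions. In C24 seeds the 3 arrays read 10.63, 10.59 and 10.34 at 8-9 days, 11.39, 11.34 and 11.29 at 10-11 days, and 11.19, 11.21 and 11.26 at 12-13 days. In Col-0 seeds they read 10.28, 10.31 and 10.46 at 8-9 days, 11.48, 11.37 and 11.49 at 10-11 days, and 11.05, 11.13 and 11.15 at 12-13 days. All arrays at 8-9 days lay below all later ones, and the accessions overlapped at 8-9 and at 10-11 days.

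AT2G25450 transcript fell through development in both accessions and was lower in C24 at every stage. In C24 seeds the 3 arrays read 10.73, 10.52 and 10.27 at 8-9 days, 8.98, 8.68 and 9.06 at 10-11 days, and 8.11, 8.22 and 7.79 at 12-13 days. In Col-0 seeds they read 11.80, 11.60 and 11.71 at 8-9 days, 11.00, 11.17 and 11.12 at 10-11 days, and 10.32, 10.10 and 10.16 at 12-13 days. No C24 array reached the lowest Col-0 array of its own stage, and the C24 arrays at 8-9 days overlapped the Col-0 arrays at 12-13 days.

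**Figure D1:**
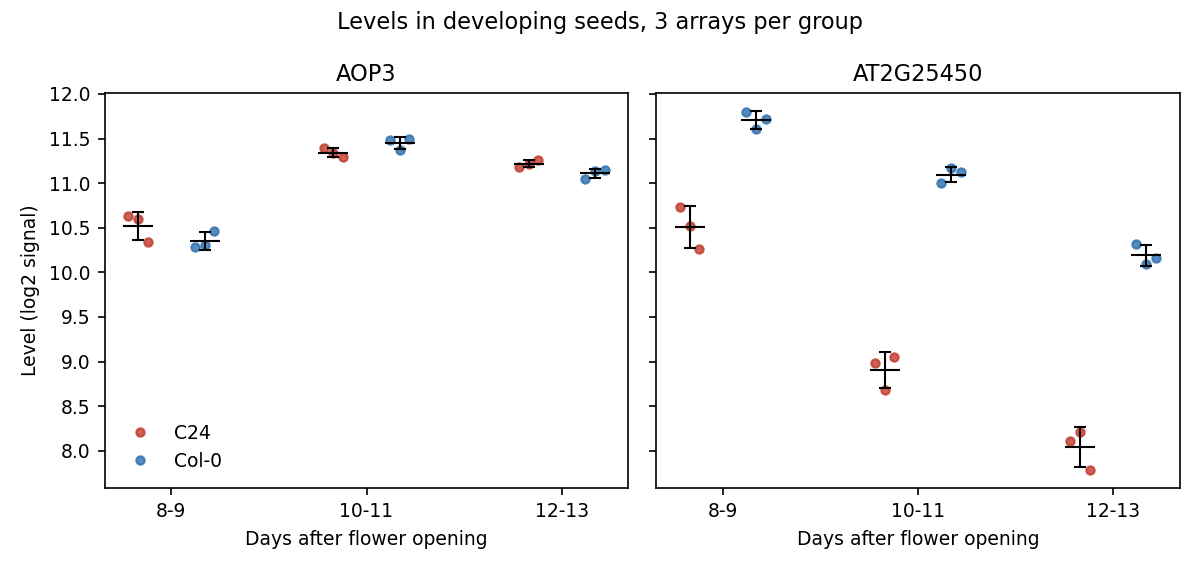
Log2 level of AOP3 and AT2G25450 on each of the 18 arrays, by accession and days after flower opening, with the mean and SD of the 3 arrays of a group. AOP3 was highest at 10-11 days in both accessions, and AT2G25450 declined with stage and lay lower in C24 than in Col-0 at each stage.

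The accession comparison separated the genes. AT2G25450 averaged 10.51 ± 0.23 in C24 and 11.70 ± 0.10 in Col-0 at 8-9 days (mean ± SD, n = 3 arrays each, as throughout). This is a log2 difference of -1.20 ± 0.13 (C24 minus Col-0, SE of the limma model), or 2.29-fold lower in C24, with an adjusted p of 1.70e-06 from limma over all 19755 probe sets tested. At 10-11 days AT2G25450 stood at 8.90 ± 0.20 in C24 and 11.10 ± 0.09 in Col-0, a difference of -2.19 ± 0.13, or 4.57-fold lower in C24 (limma adjusted p = 7.37e-10). The gap was therefore wider at this stage than at the one before, as tested further on. The 12-13 day levels were 8.04 ± 0.22 in C24 and 10.19 ± 0.12 in Col-0, a difference of -2.15 ± 0.13, or 4.45-fold lower in C24 (limma adjusted p = 7.68e-10). In bulk seeds, fewer cells that carry a transcript and less transcript per cell cannot be told apart.

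Of all probe sets tested, 9.22% were called lower in C24 at 8-9 days, 9.54% at 10-11 days and 11.7% at 12-13 days, at an adjusted p under 0.05. AT2G25450 was among the 536 probe sets (2.71%) called lower at all 3 stages, and among the 46 (0.233%) that were also at least 1 log2 unit lower at each. Ranked by log2 difference, 127 probe sets were lower in C24 than it was at 8-9 days, 27 at 10-11 days and 37 at 12-13 days.

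AOP3 did not pass the test between the accessions at any stage. At 8-9 days it averaged 10.52 ± 0.16 in C24 and 10.35 ± 0.10 in Col-0, a difference of 0.17 ± 0.08 (95% confidence interval -0.0023 to 0.34, limma adjusted p = 0.17). Without the third C24 array at 8-9 days the difference was 0.26 and passed (limma adjusted p = 0.0292). At 10-11 days it averaged 11.34 ± 0.05 in C24 and 11.45 ± 0.07 in Col-0, a difference of -0.11 ± 0.08 (-0.28 to 0.06, limma adjusted p = 0.415). At 12-13 days it averaged 11.22 ± 0.04 in C24 and 11.11 ± 0.05 in Col-0, a difference of 0.11 ± 0.08 (-0.06 to 0.28, limma adjusted p = 0.372), with the 3 C24 arrays above the 3 Col-0 arrays. The intervals leave room for differences of up to 0.34 on the log2 scale. Across the table, 19.5% of probe sets were called in either direction at 8-9 days, 19.1% at 10-11 days and 23.0% at 12-13 days, and 60.0% were called at no stage.

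The stage comparisons moved the genes in opposite directions at the early step. AOP3 rose from the first to the second stage in both accessions, by 0.82 ± 0.08 in C24 (1.76-fold, limma adjusted p = 1.08e-07) and by 1.10 ± 0.08 in Col-0 (2.14-fold, limma adjusted p = 2.47e-09). In this step 24.0% of probe sets were called higher in C24 and 19.9% in Col-0, and 15.2% in both. AOP3 was then lower at 12-13 than at 10-11 days in Col-0, by -0.34 ± 0.08 (limma adjusted p = 0.00294), where 18.3% of probe sets were called lower. The same step in C24 gave -0.12 ± 0.08 and did not pass (-0.29 to 0.05, limma adjusted p = 0.329), although the 3 arrays at 12-13 days lay below those at 10-11 days. There 25.7% of probe sets were called in either direction.

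Over the whole span AOP3 was higher at 12-13 than at 8-9 days, by 0.70 ± 0.08 in C24 (limma adjusted p = 4.97e-07) and by 0.76 ± 0.08 in Col-0 (limma adjusted p = 1.55e-07). This placed it among the 23.1% of probe sets called higher over that span in both accessions. In either direction 59.4% of probe sets were called in C24 and 60.6% in Col-0.

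AT2G25450 fell at each step in both accessions. From 8-9 to 10-11 days the change was -1.60 ± 0.13 in C24 (3.04-fold lower, limma adjusted p = 6.03e-09) and -0.61 ± 0.13 in Col-0 (limma adjusted p = 0.000673). From 10-11 to 12-13 days it was -0.87 ± 0.13 in C24 (limma adjusted p = 4.77e-05) and -0.90 ± 0.13 in Col-0 (limma adjusted p = 1.80e-05). The larger C24 fall thus lay in the early step. Probe sets called lower made up 26.0% in C24 and 23.3% in Col-0 in the early step, and 14.1% in C24 and 18.3% in Col-0 in the late one, in which 9.74% were called lower in both.

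Over the whole span AT2G25450 fell by 2.47 ± 0.13 in C24 on the log2 scale (5.53-fold, limma adjusted p = 6.34e-12) and by 1.51 ± 0.13 in Col-0 (2.85-fold, limma adjusted p = 5.89e-09). It was among the 25.2% of probe sets called lower over the span in both accessions.

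The interaction tests whether a step differed between the accessions, with the Col-0 change subtracted from the C24 change. For AT2G25450 it was -0.99 ± 0.18 in the early step (95% confidence interval -1.37 to -0.61, limma adjusted p = 0.00176) and -0.95 ± 0.18 over the whole span (-1.33 to -0.57, limma adjusted p = 0.00168). In the late step it was 0.04 ± 0.18 (-0.34 to 0.42, limma adjusted p = 0.933). The steeper fall in C24 was thus measured between 8-9 and 10-11 days. Of all probe sets, 4.24% were called lower for the early interaction and 5.90% for the whole span, and 8.27% were called in either direction for the late one.

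For AOP3 no interaction passed. It was -0.28 ± 0.11 in the early step (-0.52 to -0.04, limma unadjusted p = 0.0266, adjusted p = 0.162), 0.22 ± 0.11 in the late step (-0.02 to 0.46, limma adjusted p = 0.27) and -0.06 ± 0.11 over the whole span (-0.30 to 0.18, limma adjusted p = 0.827). Without the third C24 array at 8-9 days the early interaction was -0.37 and passed (limma adjusted p = 0.0392). In either direction 8.12% of probe sets were called for the early step and 10.6% for the whole span.

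**Figure D2:**
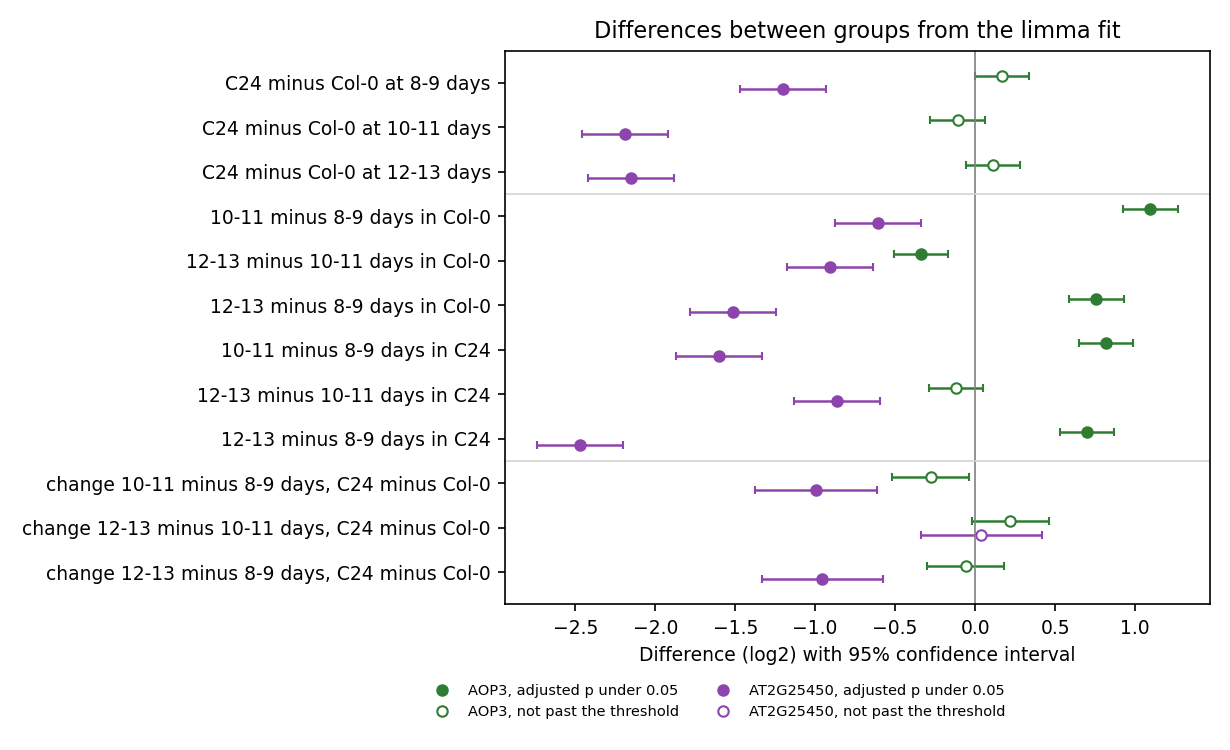
Log2 differences of AOP3 and AT2G25450 with 95% confidence intervals from the limma model, for the accession difference (C24 minus Col-0) by stage, the steps within each accession, and the interactions. The accession differences of AT2G25450 lay at -1.20, -2.19 and -2.15, and the intervals of all 3 accession differences of AOP3 included 0.

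Ordered by group mean, AOP3 ran from Col-0 at 10-11 days through C24 at 10-11 days, C24 at 12-13 days, Col-0 at 12-13 days and C24 at 8-9 days to Col-0 at 8-9 days. The arrays of the highest pair of groups overlapped, as did those of the lowest pair, and the widest gap between neighbours was 0.59, between Col-0 at 12-13 days and C24 at 8-9 days. AT2G25450 ran from Col-0 at 8-9 days through Col-0 at 10-11 days, C24 at 8-9 days, Col-0 at 12-13 days and C24 at 10-11 days to C24 at 12-13 days. In that order the arrays of C24 at 8-9 days and Col-0 at 12-13 days overlapped, and the widest gap was 1.29, between Col-0 at 12-13 days and C24 at 10-11 days. The group means spanned 1.10 for AOP3 and 3.67 for AT2G25450.

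Stage held 94.7% of the sum of squares of AOP3 over the 18 arrays and accession 0.455%, with 2.02% in the interaction and 2.87% between arrays of a group. For AT2G25450 stage held 41.7%, accession 53.7%, the interaction 3.32% and the arrays of a group 1.23%. The medians over all probe sets were 51.7% for stage, 4.56% for accession, 5.81% for the interaction and 21.2% for arrays of a group. AOP3 thus varied almost entirely with stage, and accession was the largest of these shares for AT2G25450.

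Seed coat markers moved in the same direction as AT2G25450 at part of the stages. The summed linear level of the 4 named seed coat markers (BAN, DFR, AT3G50990 and ARA12, of 9 listed) lay between 7249 and 9152 in C24 and between 10846 and 11621 in Col-0 at 8-9 days. It lay between 2544 and 2786 in C24 and between 2851 and 3758 in Col-0 at 10-11 days, and at 12-13 days it overlapped, at 1914 to 2122 in C24 and 1811 to 2169 in Col-0. The sum fell with stage in both accessions, as AT2G25450 did. Of the 4 markers, 3 were called lower in C24 at 8-9 days and 1 at 10-11 days, against 9.22% and 9.54% of all probe sets. At 12-13 days the differences were 0.95 for BAN, which was called higher in C24 (limma adjusted p = 0.000255), and -0.13 for DFR, 0.06 for AT3G50990 and -0.09 for ARA12, none of which passed.

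The summed level of the 4 named embryo and storage markers, of 12 listed, followed stage as AOP3 did in the early step. It lay between 14137 and 18879 in C24 and between 9239 and 14824 in Col-0 at 8-9 days, between 37547 and 41202 in C24 and between 36000 and 36955 in Col-0 at 10-11 days, and between 39810 and 41622 in C24 and between 37373 and 38317 in Col-0 at 12-13 days. These sums overlapped at 8-9 days and were higher in C24 without overlap at 10-11 and 12-13 days. Marker by marker, 3 of the 4 were called higher in C24 at 8-9 days, against 10.3% of all probe sets. None of the 4 was called at 10-11 or 12-13 days. The part of these tissues in the levels of either gene was not tested.

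The 3' minus 5' difference of the actin control probe sets, a measure of RNA integrity, overlapped between the accessions at each stage. It lay between 1.63 and 2.35 in C24 and between 1.72 and 2.10 in Col-0 at 8-9 days. At 10-11 days the overlap was narrow, with 1.525 to 2.278 in C24 and 1.388 to 1.529 in Col-0. The range at 12-13 days was 1.13 to 1.32 in C24 and 1.05 to 1.75 in Col-0. For a GAPDH control it lay between 0.53 and 0.66 in C24 and between 1.04 and 1.52 in Col-0 at 12-13 days, without overlap. The same control gave 0.12 to 0.80 in C24 and 0.17 to 0.46 in Col-0 at 8-9 days. Another GAPDH control gave 0.07 to 0.28 in C24 and 0.30 to 0.62 in Col-0 at 12-13 days, also without overlap. Some controls also differed between stages. The actin range in Col-0 was lower at 10-11 than at 8-9 days, and at 12-13 days it overlapped both. In C24 the actin range was lowest at 12-13 days without overlap, but a second actin control overlapped between 10-11 and 12-13 days. The first GAPDH control gave 0.76 to 1.27 in C24 and 0.60 to 0.85 in Col-0 at 10-11 days. It thus rose at each step without overlap in Col-0, but not in C24. The part of RNA integrity in the accession and stage results was not tested.

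Of 70 listed glucosinolate genes, 12 were named on the array, 10 of them beside the members. Names came from the platform annotation, in which 7931 of the 19755 tested probe sets are not listed. A gene that was not named may thus still have a probe set, and the 10 do not stand for the whole pathway. These 10 were the regulators MYC3 and MYC4, the aminotransferase BCAT4 of chain elongation, the core structure genes GSTU20, UGT74B1 and AT2G31790, the side-chain gene AOP1, the transporters GTR1 and GTR2, and the beta glucosidase BGLU28. Between the accessions, 2 of the 10 were higher in C24 and 1 lower at 8-9 days, 2 higher and 1 lower at 10-11 days, and 1 higher and 2 lower at 12-13 days. The shares of all probe sets called higher in C24 were 10.3% at 8-9 days, 9.61% at 10-11 days and 11.3% at 12-13 days. Those called lower were 9.22%, 9.54% and 11.7% in order. The median difference of the 10 was 0.13, -0.02 and 0.07 at these stages in order, against -0.02, 0.01 and -0.01 over all probe sets. None of the 10 was called lower in C24 at all 3 stages, as AT2G25450 was.

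BCAT4, an aminotransferase of methionine chain elongation, showed the widest of these accession differences at 8-9 and 10-11 days, and in the opposite direction to AT2G25450. It averaged 8.80 in C24 and 7.76 in Col-0 at 8-9 days, a difference of 1.03 (limma adjusted p = 0.00014), and 9.50 in C24 and 8.76 in Col-0 at 10-11 days, a difference of 0.74 (limma adjusted p = 0.003). At 12-13 days the difference was 0.34 and did not pass. GSTU20, a glutathione S-transferase, was higher in C24 by 0.27 at 8-9 days (limma adjusted p = 0.0388) and by 0.29 at 12-13 days (limma adjusted p = 0.0217), and AT2G31790 by 0.39 at 10-11 days (limma adjusted p = 0.0256). GTR1 was lower by -0.37 at 8-9 days and -0.35 at 12-13 days, UGT74B1, a glucosyltransferase, by -0.37 at 12-13 days, and MYC3 by -0.33 at 10-11 days. The BCAT4 calls held with each array left out. Each of the others missed the threshold without certain single arrays, at adjusted p of up to 0.237 for MYC3 (without the third C24 array at 10-11 days), 0.17 for GSTU20 (without the second Col-0 array at 8-9 days), 0.163 for AT2G31790 (without the first Col-0 array at 10-11 days), 0.0898 for UGT74B1 (without the third Col-0 array at 12-13 days) and 0.0875 for GTR1 (without the first Col-0 array at 8-9 days).

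In the early step 5 of the 10 rose and 1 fell in C24, against 24.0% and 26.0% of all probe sets, and 6 rose and 1 fell in Col-0, against 19.9% and 23.3%. Their median change was 0.21 in C24 and 0.31 in Col-0, against 0.02 and -0.01 over all probe sets. Without single arrays the calls of UGT74B1 in C24 (adjusted p = 0.154 without the second C24 array at 8-9 days) and in Col-0 (0.114 without the second Col-0 array at 8-9 days), and of GTR1 (0.142 without the second Col-0 array at 8-9 days) and BGLU28 (0.0568 without the second Col-0 array at 10-11 days) in Col-0 missed the threshold. AOP1, the neighbour and relative of AOP3, rose by 0.82 in C24 (limma adjusted p = 4.27e-05) and by 1.06 in Col-0 (limma adjusted p = 2.36e-06), at lower probe-set readings of 5.61 to 6.93. GTR2, which imports glucosinolates into cells, rose by 1.64 in C24 and 1.60 in Col-0 in this step, and by 2.50 in C24 and 2.68 in Col-0 over the whole span. GSTU20 fell over the whole span by 1.43 in C24 and by 1.46 in Col-0, the same direction as AT2G25450. Among the 10, an interaction passed for UGT74B1 alone, at -0.55 in the late step (limma adjusted p = 0.029) and -0.55 over the whole span (limma adjusted p = 0.0246).

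**Figure D3:**
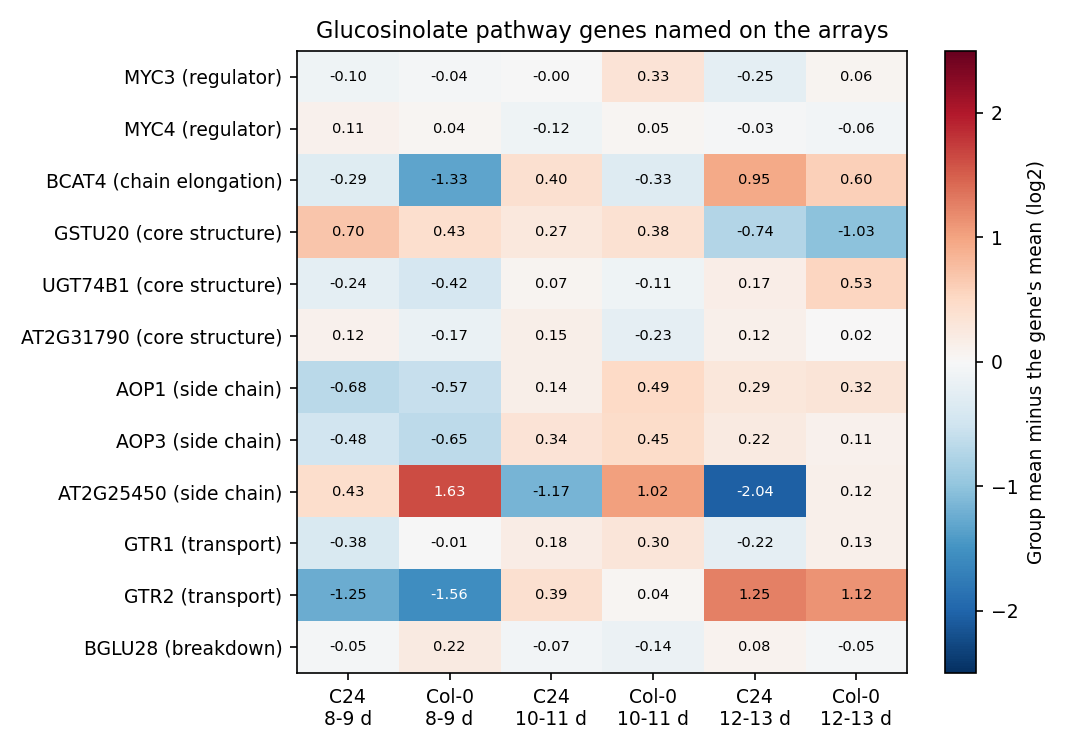
Group means of the 12 named glucosinolate genes on the log2 scale, each minus the gene's own mean over the 6 groups, with C24 left of Col-0 at each stage. AT2G25450 was lower in C24 at each stage, BCAT4 was higher in C24 at 8-9 and 10-11 days, and AOP1 and AOP3 were lowest at 8-9 days.

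Related dioxygenase genes were compared as a check on how far each pattern extended to them. Of 10 listed genes of the AOP family 8 were named, and among the 7 other than AOP3, 3 were higher in C24 at 8-9 days, 2 at 10-11 days, and 2 higher and 1 lower at 12-13 days. Over the whole table, 10.3%, 9.61% and 11.3% of probe sets were called higher in C24 at the stages in order. The shares called lower were 9.22%, 9.54% and 11.7%. AT1G52810 was higher in C24 by 1.90 (limma adjusted p = 4.22e-06), 0.88 and 0.71 at the stages in order, and AT1G52800 by 0.65, 0.98 and 0.49. At 12-13 days these calls missed the threshold without single arrays, at adjusted p of up to 0.149 for AT1G52800 (without the first C24 array) and 0.128 for AT1G52810 (without the second C24 array), as did that of AT1G52800 at 8-9 days without the second Col-0 array (0.0519). In Col-0 the means were dim, at 4.73, 4.77 and 4.58 for AT1G52810 and 4.37, 4.74 and 4.96 for AT1G52800. The 25th percentiles of the arrays lay between 4.41 and 4.57, so the sizes of these differences are less certain. AT1G52790, counted among the 7, read 3.77 to 4.11, below the 25th percentile throughout, where a difference may not show. AT1G80320 was lower in C24 by -0.86 at 12-13 days (limma adjusted p = 0.00357). AT1G28030, like AOP3, was lowest at 8-9 days and highest at 10-11 days in both accessions, with an early rise of 0.92 in C24 and 1.29 in Col-0. Its late change was -0.68 in C24 and -0.70 in Col-0, a deeper fall than the -0.12 and -0.34 of AOP3. At 8-9 days AT1G28030 was higher in C24 by 0.52 (limma adjusted p = 0.00149). In the early step 5 of the 7 rose and 1 fell in C24, against 24.0% and 26.0% of all probe sets, and 3 rose in Col-0, against 19.9%.

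Among 15 other probe sets of dioxygenases related to AT2G25450, 3 were lower in C24 at 8-9 days, 2 lower and 3 higher at 10-11 days, and 1 lower and 2 higher at 12-13 days. Shares of all probe sets were 9.22%, 9.54% and 11.7% lower and 10.3%, 9.61% and 11.3% higher at the stages in order. AT1G06640 was the one of the 15 called lower at all 3 stages, by -0.84, -1.43 and -1.58 (limma adjusted p = 0.000456, 1.44e-06 and 3.01e-07 in order). Its levels rose with stage, by 0.50 over the whole span in C24 and 1.24 in Col-0, where AT2G25450 fell. One of the probe sets of 2A6 was lower in C24 by -2.27 at 8-9 days (limma adjusted p = 2.28e-09) and -0.96 at 10-11 days (limma adjusted p = 7.29e-05), and fell with stage in Col-0, by -2.16 over the whole span. A second probe set of 2A6 read 3.70 to 4.12, below the 25th percentile of the arrays, and was not called between the accessions. AT1G04380 was higher in C24 by 0.37 at 10-11 days and by 0.70 at 12-13 days (limma adjusted p = 0.031 and 0.000179 in order). At 10-11 days AT1G04350 was higher in C24 by 0.41 and AT1G03400 by 0.37. AT1G06620 was higher in C24 by 0.23 at 12-13 days, but also read below the 25th percentile of the arrays throughout. AT3G61400 was lower by -0.44 at 8-9 days (limma adjusted p = 0.0402). Without single arrays the calls of AT3G61400 (0.175 without the first Col-0 array), of AT1G04380 at 10-11 days (0.11 without the first C24 array) and of AT1G06620 (0.158 without the first C24 array) missed the threshold. The paired shape of AT2G25450, a fall with stage in both accessions and a lower level in C24 at every stage, was called for none of the 15. Among them, the second probe set of 2A6, AT1G06620, AT5G43440, AT5G59530 and AT5G59540 read below the 25th percentile of the arrays throughout. At such levels this shape may not show. Over the whole span in C24, 11 of the 15 were called higher, against 29.4% of all probe sets. Those called included the second probe set of 2A6, AT1G06620, AT5G43440 and AT5G59530. These read below the 25th percentile of the arrays throughout, so the count rests in part on dim probe sets. Whether related copies share signal on these probes was not tested.

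**Figure D4:**
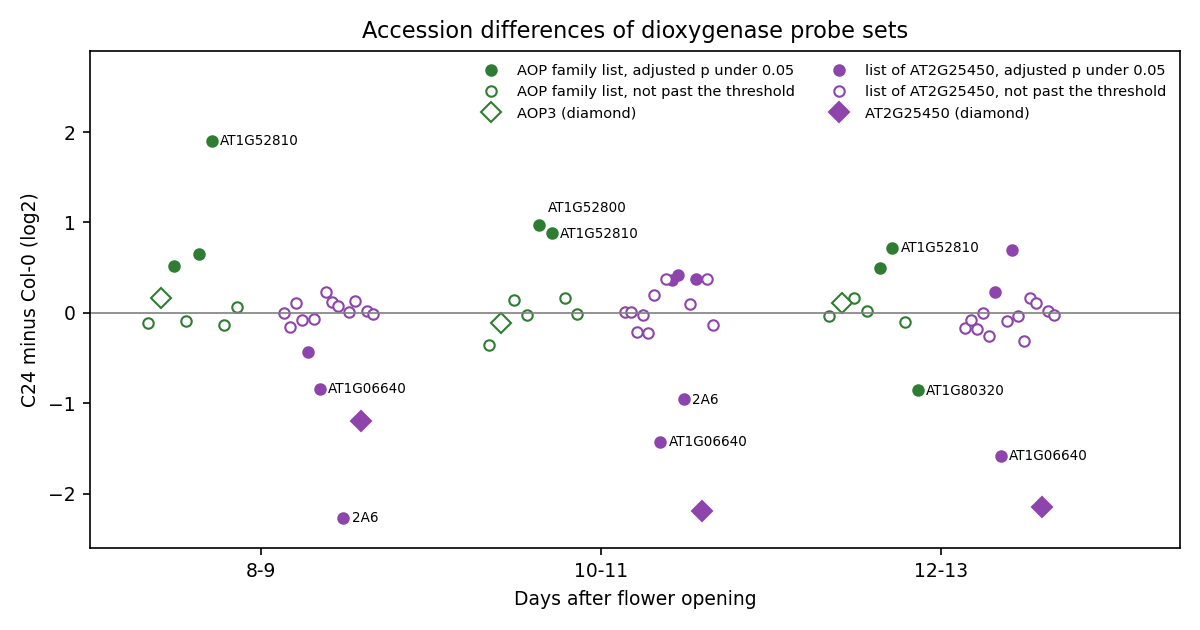
C24 minus Col-0 log2 difference of each named dioxygenase probe set at each stage, with genes of the AOP family in green and those related to AT2G25450 in purple, and filled symbols for a limma adjusted p under 0.05. AOP3 (open diamonds) lay near 0 at each stage, and AT2G25450 (filled diamonds) lay at -1.20, -2.19 and -2.15.

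The neighbouring genes were compared by accession as well. On chromosome 2, 3 neighbours of AT2G25450 were named. AT2G25420 was higher in C24 by 0.46 at 8-9 days (limma adjusted p = 0.00701). AT2G25430 gave -0.19, -0.20 and -0.29 at the stages in order, and passed as lower in C24 at 12-13 days (limma adjusted p = 0.0437). AT2G25460 was not called between the accessions, but read 3.32 to 3.77, below the 25th percentile of the arrays, where a difference may not show. On chromosome 4, AOP3 lies between AT4G03040 and AOP2, with AOP1 beyond. Of the 5 named neighbours of AOP3, the accession test called 1, AT4G03030, higher in C24 by 0.25 at 10-11 days (limma adjusted p = 0.0457). AT4G03040 read 3.60 to 3.84 and AT4G03090 read 3.71 to 4.14, also below the 25th percentile of the arrays. Across the table, 19.5% of probe sets were called in either direction at 8-9 days, 19.1% at 10-11 days and 23.0% at 12-13 days.

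The genes whose levels ran most like those of the members were sought among 2910 single-gene probe sets with group means spanning at least 1 on the log2 scale, by the Pearson correlation across the 18 arrays. These correlations describe arrays that share stages, accessions and plants. AOP3 was closest to AT3G57780 (0.970), AT4G36610 (0.969), AT1G72230 (0.967), AT3G22620 (0.967) and AT4G01130 (0.966), and most opposed by AT2G23910 (-0.955), NCRK (-0.948) and AT1G49800 (-0.948). All 5 closest genes were highest at 10-11 days in both accessions, a likeness that their choice by correlation over the same arrays builds in.

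AT2G25450 was closest to AT5G43140 (0.979), AT3G55170 (0.975), AT3G17940 (0.975), AT1G11860 (0.973) and AT4G36660 (0.972). It was most opposed by AT3G50940 (-0.984), AT4G16770 (-0.973) and AT1G48800 (-0.972). Its own span of 3.67 was wider than that of its 5 closest genes, which lay between 1.24 and 2.13. The members correlated with each other at -0.513.

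**Figure D5:**
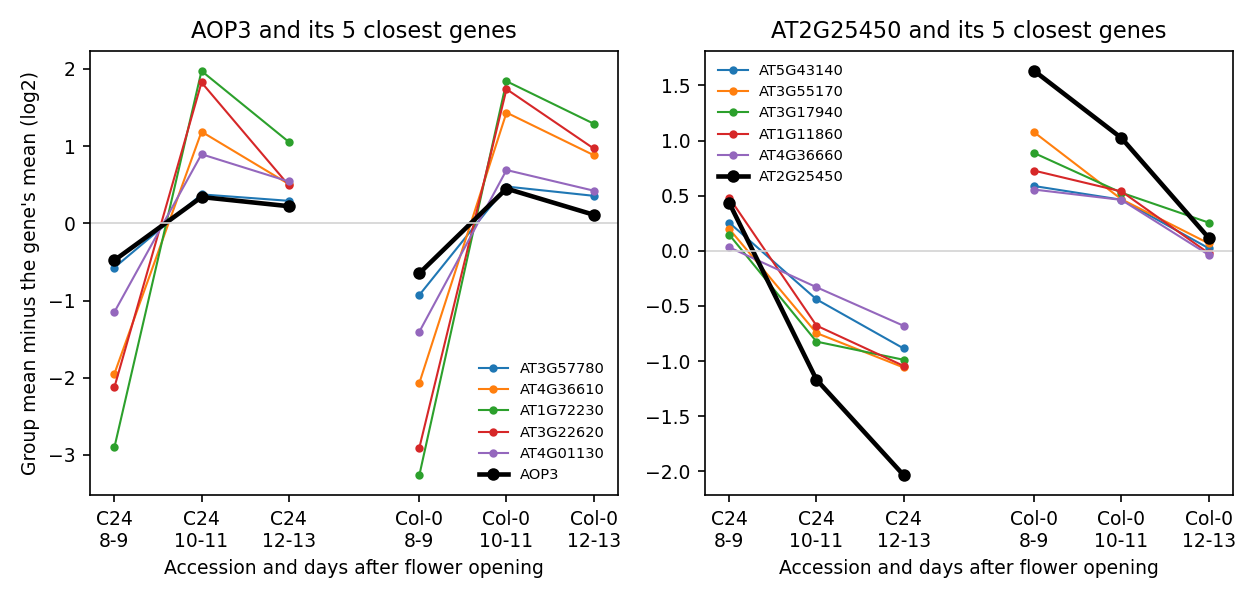
Group means of AOP3 and AT2G25450 (black) and of the 5 genes closest to each by Pearson correlation over the 18 arrays, each minus the gene's own mean on the log2 scale, for C24 and then Col-0 by days after flower opening. The genes closest to AOP3 were highest at 10-11 days, and those closest to AT2G25450 fell with stage and lay lower in C24 at each stage. Their choice by correlation over the same arrays builds in this likeness.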

How the data were processed

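The authors deposited 1 table for the series, with a log2 level for each probe set and array. Per the labels, the authors kept probes of the ATH1 array that are identical in both genomes and match TAIR10 gene models, with a minimum number of probes per set. How the background was corrected and the arrays normalized, and with which software, is not stated in the labels. The table holds no detection measure. It was used as deposited, with no filter.

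Of 19766 probe sets, 11 controls were left out and 19755 tested. By the platform annotation, 11763 stand for 1 gene and 61 for several, and 7931 are not listed. A RefSeq table (TAIR10.1) held the gene of 11718, and was used for names and gene order alone, since its build differs from that of the files.

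One mean per group was estimated from all 18 arrays with lmFit and eBayes of limma 3.58.1 in R 4.3.3, with 12 residual and 5.80 prior degrees of freedom. Within each comparison, p-values were adjusted by Benjamini-Hochberg over the whole table, at a threshold of 0.05, and the fit was tested on simulated data. For arrays, their number limits the precision. Of 45 pairs of arrays with the same replicate number, 6 had deviations from their group means that correlated above 0.1. The median was 0.0163 and the highest 0.209. Pairs with different numbers were not compared, so whether replicate numbers paired the arrays was not settled.

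The members and gene lists were chosen with earlier results of these data known. The likeness rule took the 5 highest and 3 lowest correlations per member. Alternatives were a second quantile normalization, centring on medians, leaving out the dimmest 30% of probe sets, a trended and robust prior, the compared groups alone, controls included, a replicate block, array weights, and each array left out in turn. No batch was given in the sources used here.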

Additional observations from a re-analysis of the deposited data

Results flagged for a closer look

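The steps between stages differed between the accessions, by the interaction test of limma (change in C24 minus change in Col-0, log2 scale), for 7 of the glucosinolate and dioxygenase genes and for 4 of the tissue markers. A gene counted if any of the 3 interactions passed. The lists held 12 named glucosinolate genes, 23 named dioxygenase genes, some in both, and 10 named markers. Among all probe sets, 8.12% were called in either direction for the early interaction, 8.27% for the late one and 10.6% for the whole span. Each share is for a single interaction. The share called in any of the 3 was not computed, so the gene and marker counts cannot be set against these shares. For AT2G25450 the difference was -0.99 in the early step (adjusted p = 0.00176) and -0.95 over the whole span (adjusted p = 0.00168), and both held in all 8 alternatives and with each array left out.

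The probe set of 2A6 that gave a signal went the other way, at 1.31 in the early step (adjusted p = 0.000356) and 1.95 over the whole span (adjusted p = 3.22e-06): it fell in Col-0, and in C24 it was not called at any step. Of its relatives, AT1G04380 differed by 0.57 (adjusted p = 0.0289) and AT1G06640 by -0.74 (adjusted p = 0.0299) over the whole span. In the AOP family, AT1G52810 differed by -1.02 in the early step (adjusted p = 0.0491) and -1.18 over the whole span (adjusted p = 0.0179), and AT1G80320 by -0.93 over the whole span (adjusted p = 0.04). UGT74B1 differed by -0.55 in the late step (adjusted p = 0.029) and by -0.55 over the whole span (adjusted p = 0.0246). The interactions of AT1G04380, AT1G06640, AT1G52810, AT1G80320 and UGT74B1 each missed the threshold with some single arrays left out. Of the 8 alternatives, the early interaction of AT1G52810 held in 3, the whole-span interactions of AT1G04380 and UGT74B1 in 6, and those of AT1G80320 and AT1G52810 in 7, whereas those of AT1G06640 and 2A6 and the late one of UGT74B1 held in all 8.

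Among the seed coat markers, the interaction of BAN was 1.08 in the late step (adjusted p = 0.00715) and 1.70 over the whole span (adjusted p = 6.22e-05), that of DFR was 0.57 in the early step (adjusted p = 0.0154) and 0.72 over the whole span (adjusted p = 0.00214), and that of AT3G50990 was 1.199 in the early step (adjusted p = 0.00458) and 1.79 over the whole span (adjusted p = 8.08e-05). The storage marker AT1G03890 gave -1.73 over the whole span (adjusted p = 0.038). These marker interactions were not recomputed under the alternatives. With 3 arrays a group, no single array was tested as an outlier.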

How the results depend on the processing

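The calls of AT2G25450 and AOP3 held in all 8 alternatives. With arrays left out, every call of AT2G25450 held, and AOP3 gained a call in 2 comparisons without the third C24 array at 8-9 days, C24 minus Col-0 at that stage (0.11 to 0.26 over the arrays left out) and the early interaction (-0.37 to -0.22). The late interaction of AT2G25450, 0.04 and not called, changed sign to -0.0044 with array weights, and ran from -0.0749 to 0.17 with arrays left out (-0.0749 without the second C24 array at 10-11 days, -0.05 without the second C24 array at 12-13 days and -0.0086 without the second Col-0 array at 12-13 days). The number of probe sets called for the late interaction, 1634, lay between 1040 (without the second Col-0 array at 10-11 days) and 1767. The replicate block is balanced over the groups, so it cannot change a difference between group means and acts on the SE and p alone. With it, C24 minus Col-0 of AT2G25450 thus stayed at -1.20, -2.19 and -2.15 at the stages in order. Each remained past the threshold, and the block changed no call of the members. Of 128 calls of other named genes, 33 of 1010 values under the alternatives and 145 of 822 with an array left out missed the threshold. Precision is limited to 3 arrays a group from pools that shared plants, each gene rests on 1 probe set, the number of probes behind it is not known here, and a hybridisation difference outside the compared probe sequences was not tested.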
